A study of Mus musculus with 6 samples.

Results

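The cytochrome P450, UDP-glucuronosyltransferase (UGT), glutathione S-transferase (GST) and sulfotransferase (SULT) genes were examined in TKPTS cells, an immortalized line of mouse kidney proximal tubule cells. Members were the genes of the deposited table named as family 1 to 4 P450s, Ugt1 and Ugt2 genes, alpha, mu, pi, theta, omega and zeta class GSTs, and SULTs. There were 89 of them among 29595 genes, made up of 46 P450, 20 GST, 14 UGT and 9 SULT genes. The cells had been transfected with pcDNA3.1-Hnf3a-Flag, a plasmid that expresses the forkhead transcription factor HNF3α (gene symbol Foxa1) with a Flag tag (the Hnf3a group, 3 libraries), or with pcDNA3.1-Flag, the same plasmid without the insert (the pcDNA group, 3 libraries). They were harvested 24 h later. The labels name no other agent and no other genotype for either group. All libraries came from 1 cell line, and no source used here says whether the 3 libraries of a group were independent transfections, so p-values measure only the spread between these libraries. The comparison asked which of these enzymes the cells transcribed at all, and which of those differed with the HNF3α plasmid.

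P450s are membrane-bound monooxygenases that add oxygen to drugs, steroids, fatty acids and other lipids, using electrons passed on by P450 reductase. UGTs, GSTs and SULTs then attach glucuronic acid, glutathione or sulfate to reactive or lipophilic compounds, which makes them more water-soluble and lets export pumps carry them out of the cell. Liver and kidney proximal tubule are main sites of this chemistry, and HNF3 proteins are known as regulators of liver gene expression.

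Foxa1 itself, the check of the plasmid, had 334, 296 and 284 FPKM in the Hnf3a libraries against 9.49, 9.54 and 9.96 FPKM in the pcDNA libraries. FPKM (fragments per kilobase of transcript, scaled to library size) is the level per transcript length deposited by the authors. All 3 Hnf3a libraries lay far above all pcDNA libraries, by 31.3-fold (log2 fold change 4.97, SE 0.067, adjusted p = 5.99e-10). Every fold change and adjusted p here comes from edgeR's quasi-likelihood test on the deposited counts, with Benjamini-Hochberg adjustment over all 17824 genes tested and a threshold of 0.05. Library totals ranged from 60473818 to 71154667 counts. Of 15 proximal tubule marker genes 10 were in the table, and 6 were above 12 counts in all pcDNA libraries, with a summed level of 12.1 to 14.0 CPM (counts scaled to library size) in pcDNA and 12.9 to 15.7 CPM in Hnf3a. Slc34a1, Slc5a12, Slc22a6, Slc22a8 and Kap, which define differentiated proximal tubule, had no values to use here. The 2 Hnf3a libraries with replicate numbers 2 and 3 stood apart in 10 fibroblast marker genes, with a sum of 69.4 and 86.1 CPM against 2.19 CPM in Hnf3a replicate 1 and 1.04 to 1.55 CPM in pcDNA. They also had 10 of 10 macrophage marker genes above 12 counts, against 2 in Hnf3a replicate 1 and 3 or 4 in pcDNA. Skeletal muscle markers summed to 5.68 and 6.63 CPM in these libraries, against 1.49 CPM in Hnf3a replicate 1 and 1.06 to 1.79 CPM in pcDNA. The sum of 5 endothelial markers was 2.55 to 2.64 CPM in Hnf3a and 3.77 to 4.97 CPM in pcDNA. Most of it was Cdh5, at 107, 119 and 118 counts in Hnf3a against 202, 279 and 284 in pcDNA. Tek went the other way (11, 15 and 16 counts against 0, 0 and 0), and Pecam1, Kdr and Emcn overlapped between groups. All 10 liver marker genes were above 12 counts in every pcDNA library, with a sum of 31.8 to 57.2 CPM against 25.0 to 31.9 CPM in Hnf3a. Whether any of these had a part in the results was not tested, and results are given with and without these 2 libraries where the difference between groups passed the test.

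Detection was set at more than 12 counts in all 3 pcDNA libraries, about 3 sequenced fragments (0.182 to 0.198 CPM). By this rule 36 of the 89 members were detected in pcDNA cells, where 53.3% of all table genes were. The GST family was the most complete, with 16 of 20 members detected, while 11 of 46 P450s, 6 of 14 UGTs and 3 of 9 SULTs were. All 29595 genes of the table had a count in at least 1 library, so these shares and the 53.3% leave out genes without any. The mouse annotation GENCODE vM21 holds 142 names that match the rule, and those outside the table are not in the shares. In the Hnf3a libraries 34 members were detected, of which 33 were shared with pcDNA. Ugt2b34, Ugt2b35 and Ugt2b5 met the rule only in pcDNA and Ugt1a1 only in Hnf3a, and none of these 4 passed the test between groups. Members just inside the floor were Gsta2 (lowest pcDNA count 13), Ugt2b5 (13) and Cyp2j6 (14), and those just outside it were Ugt1a1 (11), Cyp2c70 (8) and Cyp2d9 (8). No member was above the floor in all libraries of one group and at or under it in all libraries of the other.

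Large parts of the P450 families had few or no counts. Of the 46 P450 genes, 26 were at or under 12 counts in every library, and 7 (Cyp2b19, Cyp2c37, Cyp2d12, Cyp2d34, Cyp2j13, Cyp4f15 and Cyp4x1) were at 0 in all 3 pcDNA libraries, which allows a level up to the floor. No member of the Cyp1a, Cyp2a, Cyp2b, Cyp2e, Cyp2f, Cyp3a or Cyp4a subfamilies was detected. These include Cyp3a11, a main drug-metabolizing P450 of mouse liver, and Cyp4a10 and Cyp4a14, which hydroxylate fatty acids in kidney and liver. Among the UGTs, Ugt1a2, Ugt1a5, Ugt1a9, Ugt2a3, Ugt2b1, Ugt2b36 and Ugt2b38 were not detected either, and among the SULTs neither were Sult1a1, Sult1b1, Sult1d1, Sult2a8, Sult4a1 and Sult6b2. In the GST family 4 members fell short of the floor in at least 1 pcDNA library (Gstm3, Gstm6, Gstm7 and Gstt1).

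Among the detected genes, levels spanned more than 3 orders of magnitude per length, as the plot of FPKM by library shows. Only 19 of the 89 members reached a mean of 1 FPKM in pcDNA, and the 5 that reached 10 FPKM were all GSTs: Gsto1, Gstp1, Gstm1, Gsta4 and Gstp2. Gsto1 alone held 60.2% of the summed GST FPKM in pcDNA (59.7% to 60.9%). Ugt1a7c held 88.4% of the UGT sum, and Cyp1b1 39.8% of the P450 sum. The SULTs were led by Sult2b1, which sulfonates cholesterol and related sterols (1.66 FPKM ± 0.152, SD, n = 3, in pcDNA), and Sult1c2 (1.53 FPKM ± 0.177), and these neighbours in the order did not differ beyond their spread.

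**Figure D1:**
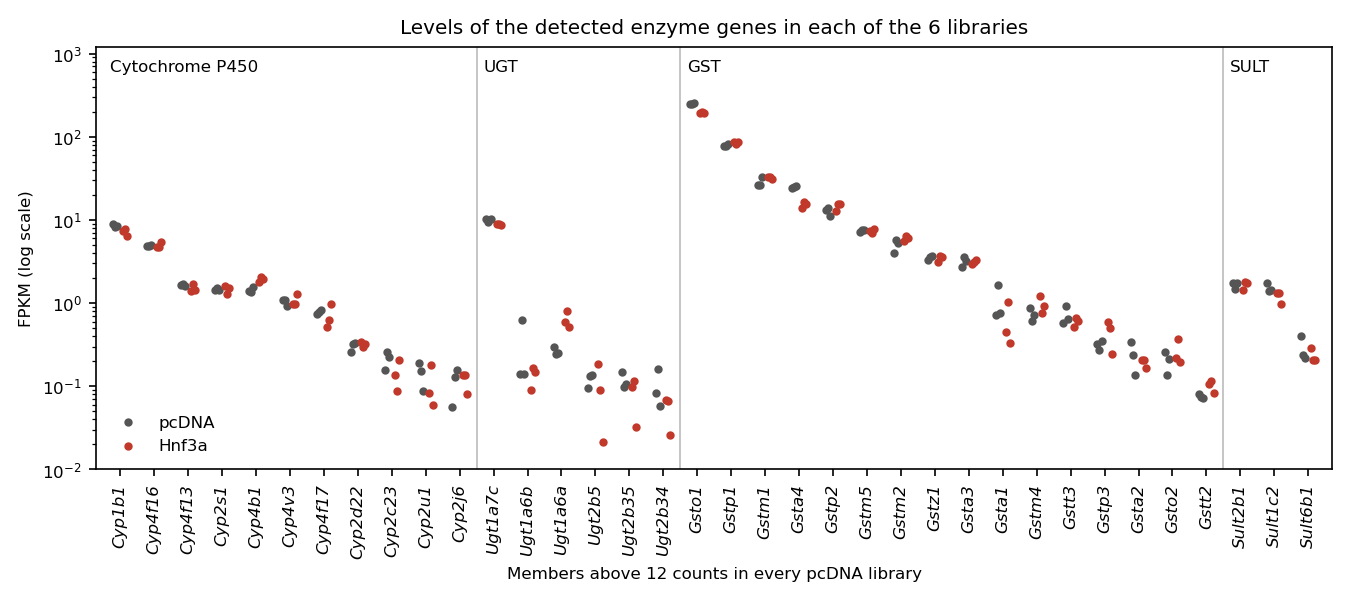
FPKM on a log axis of the 36 members above 12 counts in every pcDNA library, grouped by family and ordered by their pcDNA mean, with 1 point per library (gray, pcDNA; red, Hnf3a; 3 libraries each). Gsto1 stands highest at about 252 FPKM in pcDNA, and most genes overlap between groups.

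The test between groups was fitted on 17824 genes that passed a filter on low counts, among them 45 members (14 P450, 18 GST, 8 UGT and 5 SULT genes). These include 9 members that were not detected in pcDNA (Cyp2c55, Cyp2e1, Cyp3a13, Gstm3, Gstm7, Sult1a1, Sult4a1, Ugt1a1 and Ugt1a2). Of the 45, 3 passed the threshold (6.67%, against 3.17% of all genes tested). Ugt1a6a was the 1 that rose (1.04% of all genes did), and Gsto1 and Gsta4 were the 2 that fell (2.13% of all genes did). With 3 called members, these shares rest on too few genes to set the families apart from the background. By sign, 21 members were higher and 24 were lower in Hnf3a (49.8% of all genes tested were lower), and the median log2 fold change was -0.018 over the members and 0.00085 over all genes tested. At an unadjusted p under 0.05 there were 8 members, 4 in each direction, where 13.5% of all genes were below that p. The libraries of the 2 groups did not overlap in CPM for 9 of the 45 members (20.0%, against 19.1% of all genes).

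**Figure D2:**
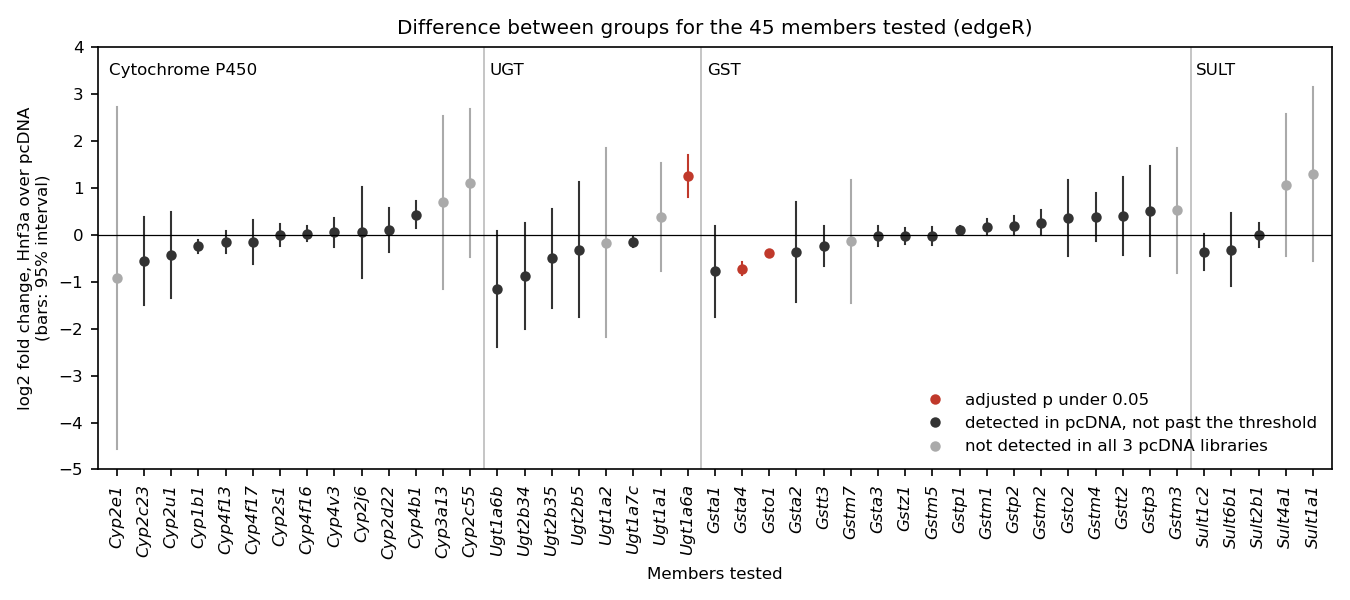
log2 fold change (Hnf3a over pcDNA) of the 45 tested members by family, with 95% intervals from the edgeR fit. Ugt1a6a, at 1.25, and Gsta4 and Gsto1, at -0.72 and -0.38, carry an adjusted p under 0.05 (red). Members not detected in all 3 pcDNA libraries are light gray, and Cyp2e1 has the widest interval.

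Gsto1, the omega class GST that reduces dehydroascorbate and methylated arsenic species, lies on the plus strand at chr19:47854970-47864790 (GRCm38). Its level was 194, 198 and 194 FPKM in the Hnf3a libraries and 251, 250 and 256 FPKM in the pcDNA libraries. All Hnf3a libraries were below all pcDNA libraries, and the means, 195.0 FPKM ± 2.31 and 252.2 FPKM ± 3.53 (SD, n = 3 each), were separated by many times the spread. Gsto1 fell by 0.38 on the log2 scale (SE 0.027, 95% interval -0.44 to -0.32, adjusted p = 2e-06), and it passed the threshold in 16 of 16 alternative fits. Without Hnf3a replicates 2 and 3 its log2 fold change was -0.38 (adjusted p = 0.000222). In that fit Hnf3a replicate 1 stands alone and is assumed to vary as the pcDNA libraries do, here and wherever both are left out. In such bulk samples, fewer cells expressing a gene and less RNA per cell cannot be told apart. Cfap43 overlaps it on the other strand, but all 2023 annotated exonic bases of Gsto1 belong to no other gene. Its neighbour Gsto2, the second omega class gene, was near the floor, at 39, 71 and 36 counts in Hnf3a and 44, 24 and 38 counts in pcDNA, and its log2 fold change of 0.35 (95% interval -0.46 to 1.16) did not pass the test (adjusted p = 0.782).

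Gsta4, the alpha class GST with high activity toward the lipid peroxidation product 4-hydroxynonenal, lies on the plus strand at chr9:78182774-78209349. It had 13.8, 16.5 and 15.5 FPKM in the Hnf3a libraries against 24.3, 25.2 and 25.8 FPKM in the pcDNA libraries. The groups were again fully apart, with means of 15.3 FPKM ± 1.34 and 25.1 FPKM ± 0.750 (SD, n = 3 each). Gsta4 fell by 0.72 on the log2 scale (SE 0.065, 95% interval -0.86 to -0.58, adjusted p = 1.98e-05), and passed in 16 of 16 alternative fits (-0.86, adjusted p = 0.000287, without Hnf3a replicates 2 and 3). The other alpha class genes did not pass the test. Gsta3, the next most abundant of them, had a log2 fold change of -0.035 (95% interval -0.25 to 0.18, adjusted p = 0.937). Gsta1 (-0.77, adjusted p = 0.513) and Gsta2 (-0.36, adjusted p = 0.849) were negative in sign, but their libraries overlapped, and 73.7% and 26.8% of the 150-base windows of their longest transcripts also occur in other genes, so reads could have been split between them.

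The remaining abundant GSTs were close to level or slightly higher in Hnf3a. Gstp1, a pi class GST that detoxifies electrophiles, had 86.2, 82.5 and 86.3 FPKM in Hnf3a and 77.3, 76.4 and 80.9 FPKM in pcDNA. Its groups did not overlap, but the log2 fold change of 0.11 (SE 0.036) had an adjusted p of 0.147. The adjacent pi class gene Gstp2 had a log2 fold change of 0.20 (SE 0.096, adjusted p = 0.405). Gstp1 and Gstp2 share 41.8% and 49.4% of their 150-base windows with other genes. Gstm1, a mu class GST, had 32.5, 32.7 and 30.9 FPKM in Hnf3a and 26.0, 26.5 and 32.6 FPKM in pcDNA. The third pcDNA library stood among the Hnf3a libraries, and the log2 fold change of 0.17 did not pass (SE 0.074, adjusted p = 0.355). Without pcDNA replicate 3 it was 0.28 (adjusted p = 0.0206). Gstm5 (-0.018, 95% interval -0.21 to 0.17) and Gstz1, the zeta class enzyme of tyrosine breakdown (-0.027, 95% interval -0.19 to 0.13), were near 0.

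Summed over all 20 GST genes, the level was 361.7 to 368.8 FPKM in Hnf3a and 411.8 to 429.4 FPKM in pcDNA. With Gsto1 and Gsta4 left out, the order of the groups turned, at 153.9 to 156.5 FPKM in Hnf3a and 136.9 to 147.4 FPKM in pcDNA. Both genes had been called lower in these same data, so leaving them out had to move the sum toward Hnf3a. The sum of the other 18 was made up mostly of Gstp1, Gstm1 and Gstp2, none of which passed the test. Of the 18 GST genes tested, Gsto1 and Gsta4 included, 9 had a positive and 9 a negative log2 fold change (median 0.047). Gsto1 made up 53.4% of the GST sum in Hnf3a (52.9% to 53.6%).

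**Figure D3:**
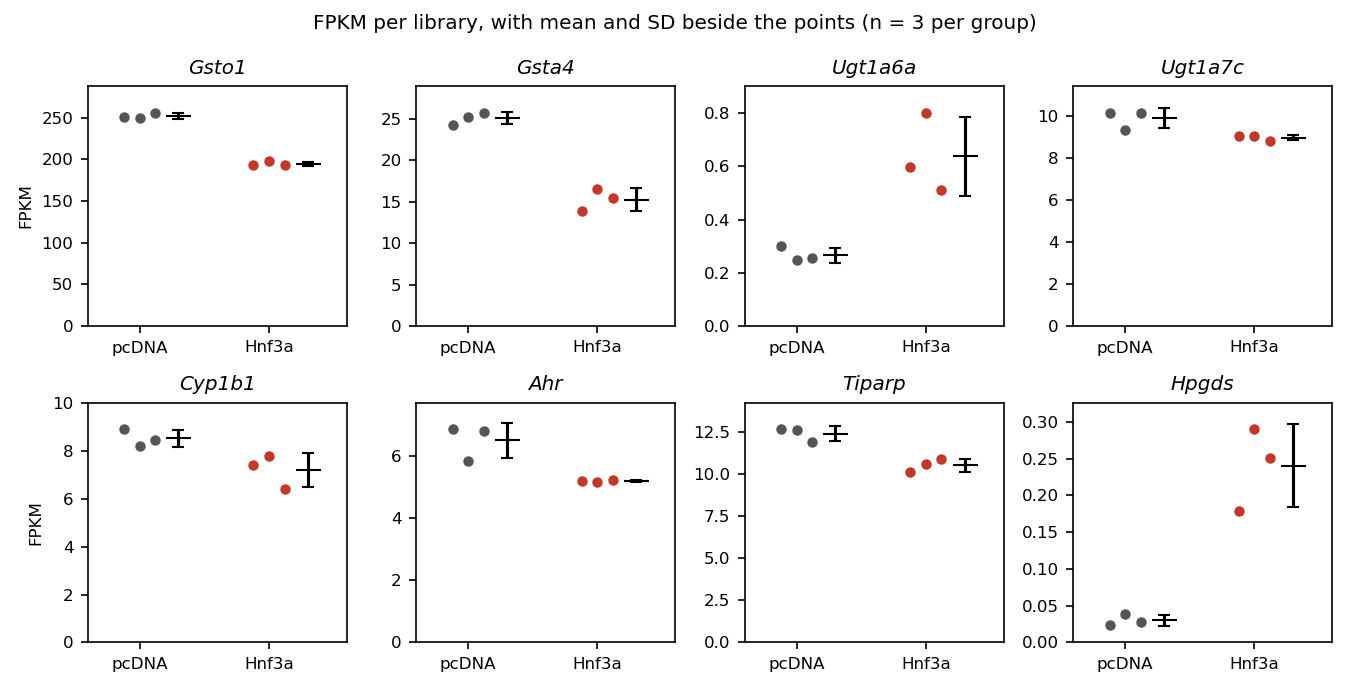
FPKM of 8 genes in each library (points; gray, pcDNA; red, Hnf3a), with the mean and SD (n = 3) to the right of the points and axes from 0. Gsto1, Gsta4, Ahr and Tiparp are lower and Ugt1a6a and Hpgds higher in Hnf3a past the threshold, whereas Cyp1b1 and Ugt1a7c, though not overlapping between groups, are not.

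The UGT family held the 1 member that rose. Ugt1a6a, which glucuronidates small planar phenols, lies on the plus strand at chr1:88134809-88218997. Counts were 189, 276 and 162 with the HNF3α plasmid and 88, 78 and 80 with the empty plasmid. Every Hnf3a library was above every pcDNA library, and the spread was wider in Hnf3a (0.637 FPKM ± 0.149 against 0.266 FPKM ± 0.0283, SD, n = 3 each). Ugt1a6a rose 2.38-fold (log2 fold change 1.25, SE 0.21, 95% interval 0.79 to 1.71, adjusted p = 0.0042). It passed in 12 of the 15 alternative fits that held it. The adjusted p was 0.0716 and 0.0844 in the limma fits on log2(FPKM + 0.1) and log2(FPKM + 1), and 0.0759 without Hnf3a replicates 2 and 3, where the log2 fold change was 1.17.

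Ugt1a6a belongs to a locus in which each gene has its own first exon or exons, and 7 members share the last 4 exons, from base 88215044 of chromosome 1 on, as the map of the Ugt1a exons shows. In its longest coding transcript, Ugt1a6a has 127 bases of its own in exon 1 and 859 bases in exon 2 (chr1:88138473-88139331). Of the 150-base windows of that transcript, 66.1% occur in other Ugt1a genes. Over all its annotated transcripts, 3001 of 4312 exonic bases belong to no other gene. A read from the shared exons cannot be given to 1 gene from its sequence alone. Its closest relative is Ugt1a6b, whose exon 2 has the same length and differs at 26 bases (97.0% identity). A 60-base stretch of exon 2 that holds 9 of these 26 differences is shown for both genes, with the differing bases in capitals. It is the stretch with most differences in the later, larger part of exon 2, and the first part was not searched (GRCm38, plus strand, chr1:88138769-88138828 and chr1:88107237-88107296).
Ugt1a6a: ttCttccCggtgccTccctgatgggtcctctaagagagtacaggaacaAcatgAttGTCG
Ugt1a6b: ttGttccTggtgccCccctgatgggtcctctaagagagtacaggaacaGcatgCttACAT

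Ugt1a7c was by far the most abundant Ugt1a gene, at 9.03, 9.01 and 8.81 FPKM in Hnf3a and 10.1, 9.32 and 10.1 FPKM in pcDNA. All Hnf3a libraries were below all pcDNA libraries, but the log2 fold change of -0.15 (SE 0.049) had an adjusted p of 0.157. Ugt1a6b had 16, 32 and 27 counts in Hnf3a and 23, 111 and 25 counts in pcDNA. Its log2 fold change of -1.15 (SE 0.57, adjusted p = 0.417) rests on pcDNA replicate 2, and the other pcDNA libraries lay within the range of Hnf3a. Ugt1a1, the bilirubin-conjugating form, had 24, 41 and 13 counts in Hnf3a and 17, 28 and 11 counts in pcDNA, with no difference past the test (adjusted p = 0.856). When the counts of all 7 Ugt1a members were added up, the libraries held 3016, 3370 and 2949 counts in Hnf3a and 3032, 3130 and 3247 counts in pcDNA. The log2 fold change of that sum was -0.098 (95% interval -0.20 to 0.00029, adjusted p = 0.372). The sum of Ugt1a6a and Ugt1a7c gave -0.086 (adjusted p = 0.509). Ugt1a6a was a small part of either sum. Ugt1a6a and Ugt1a6b, the closest pair in sequence, had log2 fold changes of opposite sign (1.25 and -1.15) and were not summed on their own. How reads from the shared exons were divided among the genes was not tested. Dnajb3 and Gm20528 lie in the same interval on the other strand.

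**Figure D4:**
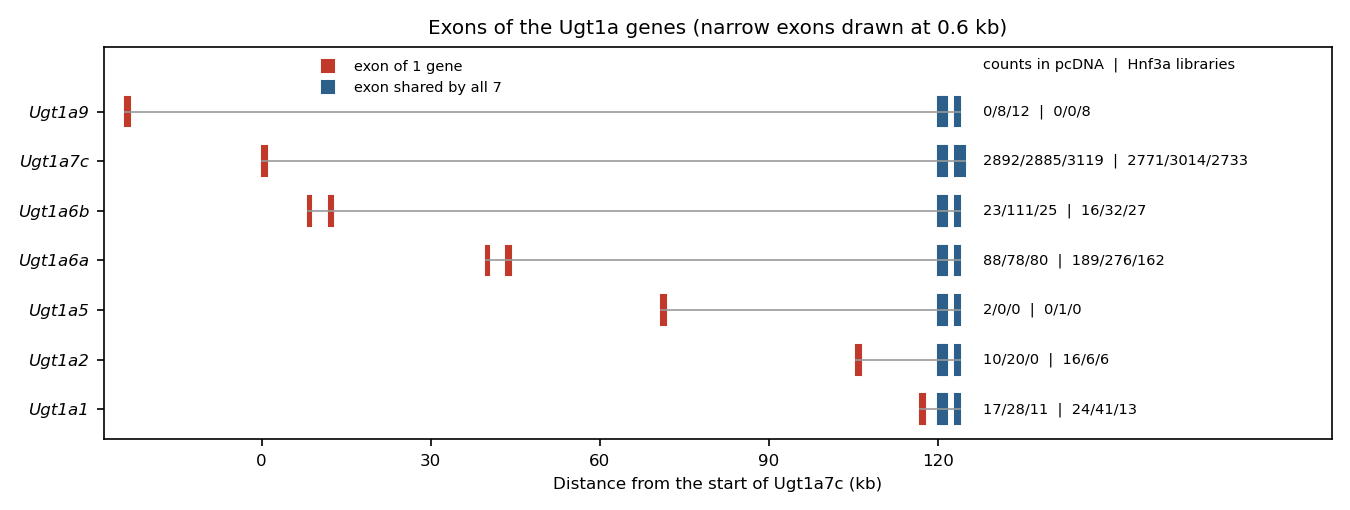
Exons of the 7 Ugt1a members by distance in kb from the start of Ugt1a7c (red, exons of 1 gene; blue, the 4 exons shared by all 7), with the counts of the 3 pcDNA and the 3 Hnf3a libraries beside each gene. Ugt1a6a, at 88, 78 and 80 against 189, 276 and 162 counts, uses the same last exons as Ugt1a7c, which has 2733 to 3119 counts per library.

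In the Ugt2b genes, which glucuronidate steroids and bile acids, Ugt2b34, Ugt2b35 and Ugt2b5 had between 3 and 52 counts per library. Ugt2b5, just inside the floor, had 26, 14 and 3 counts in Hnf3a and 13, 19 and 19 counts in pcDNA. None passed the test, and the 95% interval for Ugt2b5, from -1.75 to 1.12 on the log2 scale, includes a 2-fold difference in either direction.

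No P450 member passed the threshold. Cyp1b1, which oxidizes polycyclic aromatic hydrocarbons and estradiol and is a known target of the aryl hydrocarbon receptor, lies on the minus strand at chr17:79701537-79715061. It had 7.42, 7.81 and 6.44 FPKM in Hnf3a and 8.92, 8.23 and 8.46 FPKM in pcDNA. The groups did not overlap (7.22 FPKM ± 0.705 against 8.54 FPKM ± 0.351, SD, n = 3 each), and the log2 fold change was -0.25 (SE 0.064) with an adjusted p of 0.0561. It was called in 4 of 16 alternative fits, with adjusted p from 0.00852 to 0.26. Cyp4b1, a fatty acid and arylamine oxidase of extrahepatic tissues, had 1.79, 2.08 and 1.93 FPKM in Hnf3a and 1.39, 1.36 and 1.55 FPKM in pcDNA. Its libraries did not overlap either, with a log2 fold change of 0.42 (SE 0.13, adjusted p = 0.132).

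The other detected P450s had overlapping groups. Cyp4f16, of a subfamily that hydroxylates leukotrienes and long fatty acids, was second to Cyp1b1 in level (5.00 FPKM ± 0.403 in Hnf3a, 4.87 FPKM ± 0.0700 in pcDNA) and had a log2 fold change of 0.026 (95% interval -0.14 to 0.19). Cyp2s1 was at -0.0050 (95% interval -0.24 to 0.23). Summed over all P450 members, the level was 20.5 to 20.6 FPKM in Hnf3a and 21.3 to 21.6 FPKM in pcDNA. Cyp2c55 had 25, 6 and 26 counts in Hnf3a and 13, 9 and 3 counts in pcDNA, and its log2 fold change of 1.10 had an interval from -0.47 to 2.67. Cyp2e1, the ethanol-inducible P450, had 36, 0 and 0 counts in Hnf3a and 7, 17 and 43 counts in pcDNA, so that a single Hnf3a library held all of that group's counts. Its log2 fold change was -0.92 (adjusted p = 0.885), and without Hnf3a replicate 1 the adjusted p was 0.0335.

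No SULT passed the threshold. Sult2b1 was level (log2 fold change 0.00051, 95% interval -0.26 to 0.26, adjusted p = 0.999). Sult1c2 had 1.31, 1.32 and 0.969 FPKM in Hnf3a and 1.73, 1.41 and 1.45 FPKM in pcDNA, without overlap, and a log2 fold change of -0.36 (SE 0.18, adjusted p = 0.418). Sult1a1, the phenol sulfotransferase, had the largest positive fold change of the members tested, 2.46-fold (95% interval -0.55 to 3.15 on the log2 scale), at only 8, 17 and 32 counts in Hnf3a and 0, 14 and 8 counts in pcDNA. Sult4a1, a brain form, had 13, 42 and 7 counts against 13, 6 and 8 counts, and its log2 fold change of 1.06 rests on Hnf3a replicate 2. Both had overlapping groups, with adjusted p of 0.588 and 0.589.

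The upstream sequences of the members were read for forkhead motifs and for the cores that the aryl hydrocarbon receptor and NRF2 recognize. The 250 bases before the start site (RefSeq, GRCm38.p6) were at hand for 92 promoters of 76 members, and for 32851 promoters of all genes. On either strand, the forkhead motif TGTTTAC stood in 5 member promoters (5.4%, against 3.2% of all), TGTTTAT in 1 (1.1% against 4.2%), TGTTTGC in 4 (4.3% against 4.3%) and TGTTTGT in 6 (6.5% against 5.8%). At least 1 of these 4 stood in 15 member promoters (16.3%, against 15.7% of all). The xenobiotic response core GCGTG stood in 19 (20.7% against 28.2%) and the antioxidant response core TGACNNNGC in 4 (4.3% against 10.2%). Of the genes the results turn on, Ugt1a6a held TGTTTGT, read on the minus strand, 46 bases before its start. Cyp1b1 held GCGTG, also on the opposite strand, 76 bases before its start, and the Gsto1 and Ugt1a7c windows held none of the letters searched. Gsta4 was not searched here. The upstream windows of the Ugt1a6a and Gsto1 genes, which passed the test, and of Cyp1b1 are given 5′ to 3′ on the strand of the gene, with a searched motif in capitals (chr1:88134559-88134808 plus, chr19:47854723-47854972 plus and chr17:79715062-79715311 minus).
Ugt1a6a: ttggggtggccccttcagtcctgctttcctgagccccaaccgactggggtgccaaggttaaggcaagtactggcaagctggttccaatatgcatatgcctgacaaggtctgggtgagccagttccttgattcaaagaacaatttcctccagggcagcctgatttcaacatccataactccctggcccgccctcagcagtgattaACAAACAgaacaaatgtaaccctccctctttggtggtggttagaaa
Gsto1: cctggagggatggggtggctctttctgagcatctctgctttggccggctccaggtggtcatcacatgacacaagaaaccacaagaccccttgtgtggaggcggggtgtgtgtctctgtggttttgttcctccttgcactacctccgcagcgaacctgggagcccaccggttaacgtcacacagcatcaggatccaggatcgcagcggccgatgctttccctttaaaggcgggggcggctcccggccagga
Cyp1b1: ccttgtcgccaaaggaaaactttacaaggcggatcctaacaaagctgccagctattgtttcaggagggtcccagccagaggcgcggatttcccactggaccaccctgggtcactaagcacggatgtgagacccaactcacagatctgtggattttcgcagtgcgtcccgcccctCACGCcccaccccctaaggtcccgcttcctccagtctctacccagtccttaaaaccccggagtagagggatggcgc

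The rest of the pathway was read from 6 lists with 120 genes, of which 93 were tested. Past the threshold were 7 of them (7.53%, against 3.17% of all genes tested), 4 higher and 3 lower in Hnf3a (1.04% and 2.13% of all genes). The lists were chosen with earlier results of these data known, so these shares do not set the pathway apart from the background. The count was 0 in both limma fits and 1 with Hnf3a replicate 2 left out. None of 15 P450 partners tested passed (reductase, cytochromes b5, heme enzymes and epoxide hydrolases). Por, the reductase that feeds electrons to all microsomal P450s, had 41.0 FPKM ± 1.46 in Hnf3a and 37.8 FPKM ± 1.39 in pcDNA (log2 fold change 0.11, adjusted p = 0.196). None of 19 genes of cosubstrate supply passed either. Ugdh, which makes UDP-glucuronic acid, had a log2 fold change of -0.0043 (95% interval -0.099 to 0.090). Papss2, which makes the sulfate donor, had -0.26 (95% interval -0.66 to 0.14, adjusted p = 0.621). Papss1, the other gene for that donor, had a mean of 17.8 FPKM in pcDNA, against 1.18 FPKM for Papss2. Its log2 fold change was 0.033 (95% interval -0.073 to 0.14, adjusted p = 0.865).

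Of 14 xenobiotic sensor genes tested, 2 fell and 1 rose (21.4%, against 3.17% of all genes tested). This share rests on too few genes, in a list chosen with earlier results known, to set the sensors apart from the background. Ahr, the aryl hydrocarbon receptor, had 5.18, 5.16 and 5.22 FPKM in Hnf3a and 6.85, 5.83 and 6.78 FPKM in pcDNA. All Hnf3a libraries were below all pcDNA libraries, and Ahr fell by 0.33 on the log2 scale (SE 0.061, adjusted p = 0.0077). Tiparp, a target and repressor of that receptor, had 10.1, 10.6 and 10.9 FPKM against 12.7, 12.6 and 11.9 FPKM and fell by 0.25 (SE 0.046, adjusted p = 0.00843). Each was called in 10 of 16 alternative fits. The adjusted p of Ahr was 0.0721 with Hnf3a replicate 2 left out, 0.0715 with pcDNA replicate 1, 0.0596 with pcDNA replicate 3 and 0.135 with both Hnf3a replicates 2 and 3 left out (log2 fold change -0.32). That of Tiparp was 0.0588 with Hnf3a replicate 2 left out, 0.0653 with pcDNA replicate 1, 0.0687 with pcDNA replicate 2 and 0.051 with both Hnf3a replicates 2 and 3 left out (log2 fold change -0.30). Arnt, the receptor's partner, was level at 0.016 (95% interval -0.088 to 0.12). Nfe2l2, which encodes NRF2, the regulator of many GST genes, had a log2 fold change of -0.059 (95% interval -0.14 to 0.025, adjusted p = 0.59). Ppara, a lipid-sensing nuclear receptor, had 17, 35 and 46 counts in Hnf3a and 0, 7 and 0 counts in pcDNA. Its mean CPM in Hnf3a was 2.58 times the floor of 12 counts per library, and all pcDNA libraries lay under that floor. The adjusted p was 0.048, and the call held in 6 of 12 alternative fits. It was lost with Hnf3a replicate 2 (0.2), Hnf3a replicate 3 (0.193), pcDNA replicate 1 (0.202), pcDNA replicate 3 (0.177) or both Hnf3a replicates 2 and 3 (0.551) left out.

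Of 11 further P450 genes tested, Cyp7b1, an oxysterol 7-hydroxylase, was the 1 that changed. It had 54, 61 and 84 counts in Hnf3a and 138, 116 and 154 counts in pcDNA, without overlap, and fell by 1.12 on the log2 scale (SE 0.24, adjusted p = 0.0206). Among 23 other conjugating and oxidizing enzymes tested, Hpgds, the sigma class GST that makes prostaglandin D, was the 1 that changed. It had 85, 150 and 120 counts in Hnf3a against 12, 20 and 14 counts in pcDNA, and rose 7.2-fold (log2 fold change 2.85, SE 0.31, adjusted p = 0.000122). Hnf3a replicate 1 was the lowest of its group in Hpgds and still above all pcDNA libraries. Without Hnf3a replicates 2 and 3 the log2 fold change was 2.44. Whether the marker genes that set these 2 libraries apart had a part in this was not tested. Of 11 transporters tested, 2 export pumps of conjugates and nucleotides rose. Abcc4 had 26.1, 26.2 and 23.7 FPKM against 22.2, 22.2 and 21.6 FPKM (log2 fold change 0.20, SE 0.041, adjusted p = 0.0178), and Abcc5 had 1.53, 1.76 and 1.58 FPKM against 1.37, 1.24 and 1.15 FPKM (0.36, SE 0.083, adjusted p = 0.0323). Hpgds was called in 13 of 15 alternative fits, Cyp7b1 in 8 of 15, Abcc4 in 10 of 16 and Abcc5 in 8 of 16, and none of the 6 genes that the limma fits held (Ppara was not among them) passed in either. With the replicate number as a block, Abcc5 (adjusted p = 0.0615) and Ppara (0.076) were not called.

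Several of these calls were lost when 1 library was left out, while the log2 fold changes kept their sign. Across these fits they ran from -1.34 to -1.01 for Cyp7b1, from 0.169 to 0.244 for Abcc4 and from 0.301 to 0.43 for Abcc5. The adjusted p of Cyp7b1 was 0.0621 with Hnf3a replicate 1 left out, 0.12 with Hnf3a replicate 2, 0.108 with pcDNA replicate 1, 0.106 with pcDNA replicate 3 and 0.0861 with both Hnf3a replicates 2 and 3 left out, where its log2 fold change was -1.36. That of Abcc4 was 0.141 with Hnf3a replicate 2 left out, and 0.0884, 0.0988 and 0.109 with pcDNA replicates 1, 2 and 3 in turn, while without Hnf3a replicates 2 and 3 it was 0.0136. That of Abcc5 was 0.185 and 0.0593 with Hnf3a replicates 2 and 3 in turn, 0.15 and 0.148 with pcDNA replicates 2 and 3 in turn, and 0.333 with both Hnf3a replicates 2 and 3 left out. Hpgds passed whichever single library was left out.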

How the data were processed

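RNA from 3 Hnf3a and 3 pcDNA libraries of TKPTS cells was analysed, grouped by the sample labels. Per the labels, poly(A) RNA was made into strand-marked libraries with unique molecular identifiers. A company carried out sequencing and read processing. The submitters' processing notes list cutadapt 1.9, HISAT2 2.0.4, UMI-tools, StringTie 1.3.4d, DESeq2 and edgeR, and the build mm10, without roles. The annotation version and the use of strand in counting are not given in the sources used here. The authors deposited an estimated count and an FPKM value per gene and library. The counts are whole numbers, and in every library more genes sat at 4 counts (1148 in Hnf3a replicate 1) than at 3 (680) or 5 (378), so 1 fragment was taken as about 4 counts and the detection floor as 12 counts. Floors cover counting error only. Library totals ranged from 60473818 to 71154667. Every column of values belonged to a labelled sample.

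Counts were filtered with filterByExpr, scaled by TMM and tested two-sided with edgeR 4.0.16 (glmQLFit robust, glmQLFTest) in R 4.3.3, with no covariate. The estimated counts needed no rounding. Standard errors were derived from the F statistic. An exact permutation test of 1 gene could reach no p below 0.1 in this design. Alternatives were DESeq2 1.42.0, limma 3.58.1 on log2(FPKM + 0.1) and log2(FPKM + 1), other filters and scalings, counts divided by 4, a replicate block and leaving out each library. Leaving out Hnf3a replicates 2 and 3 together and summing Ugt1a counts were added after the data were seen. The edgeR, limma and DESeq2 procedures were also run on simulated counts with known changes. A limit on false calls was required of edgeR and limma but not of DESeq2. The simulated counts did not come in steps of about 4 per fragment. Pseudocounts shrink the log2 differences of low genes in the limma fits.

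Members and lists were chosen with earlier results of these data known. Named were members past the threshold, the 8 highest in pcDNA, the 6 largest log2 fold changes, the 3 nearest each side of the floor, pathway genes past the threshold, and Ahr, Nfe2l2, Por, Ugdh and Papss2. Gsto2, Gsta1, Gsta3, Gstz1, Cyp4b1, Cyp4f16, Cyp2s1, Sult1c2, Sult2b1, Arnt and Papss1 were added after their values were seen. GENCODE vM21 holds 142 names that match the rule, of which those outside the table were not analysed here. Gene coordinates are those of the table, and 84 of the 89 members had identical coordinates in vM21. Exons are those of the 213 member transcripts in the table, all present in vM21.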

Additional observations from a re-analysis of the deposited data

How the results depend on the processing

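Gsto1 and Gsta4 were called lower in every alternative fit (16 each), and the count of lower members ranged from 2 to 3. The count of higher members was 0 with the filter of at least 1 FPKM, which leaves Ugt1a6a out, 0 in both limma fits and 0 without Hnf3a replicates 2 and 3, and ranged from 1 to 2 when 1 library was left out. Without pcDNA replicate 3, Gstm1 was the 2nd. The number detected was 23 above 48 counts in place of 36 above 12. The median log2 fold change of the members moved to -0.14 with every gene of at least 1 count, a fit that adds the members near 0, and from -0.048 to 0.034 when 1 library was left out. The count of pathway genes, 7, was 0 in both limma fits, 3 without Hnf3a replicates 2 and 3, and from 1 to 7 when 1 library was left out. It was lowest with Hnf3a replicate 2 left out, 2 with pcDNA replicate 1 or 3 and 4 with pcDNA replicate 2. The cause was not tested. Cyp1b1 passed with every gene of at least 1 count (0.0477), with the filter of at least 1 FPKM (0.0403), with DESeq2 (0.00852) and with counts divided by 4 (0.0347).

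Among the members that the naming rule picked, values that changed sign, none of them past the threshold, belonged to Gstm5 (from -0.058 to 0.027 when 1 library was left out), Ugt2b5 (-1.12 to 0.16, and 0.59 without Hnf3a replicates 2 and 3), Cyp2j6 (-0.27 to 0.36, negative at -0.061, -0.071 and -0.27 in 3 of those fits), Ugt1a1 (-0.048 to 0.76) and Cyp2e1 (0.68 without Hnf3a replicates 2 and 3). The counts summed over all Ugt1a members (-0.098) or over Ugt1a6a and Ugt1a7c (-0.086) had the sign opposite to Ugt1a6a, but both sums are mostly Ugt1a7c, and Ugt1a6a itself was positive in every fit that held it. Over the named members tested, 248 of the alternative values kept direction and side of the threshold, 3 were weaker, 6 stronger and 10 reversed, with those 2 sums among the last. Over all genes tested, libraries with the same replicate number did not deviate together (r = -0.041, -0.010 and 0.010 for numbers 1 to 3). This does not show whether they were prepared in pairs. With the replicate number as a block, 1 member was higher and 2 were lower (the same genes), the median was -0.0013, and 5 pathway genes passed, without Abcc5 (0.0615) and Ppara (0.076). Low members had wide intervals: that of Gsta2, at 13 to 29 counts, ran from -1.43 to 0.70 on the log2 scale. Counting error and the spread between libraries were not separated.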
